A study of Mus musculus with 8 samples.

Results

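The genes described here encode laminin chains, the nidogens and the heparan sulphate proteoglycans of basement membranes. They were chosen by name, as the 10 gene symbols *Lama1*, *Lama2*, *Lama3*, *Lama4*, *Lamb2*, *Lamc1*, *Nid1*, *Nid2*, *Hspg2* and *Agrn*. Of these 10 genes, 9 have a row among the 18120 gene symbols of the deposited table, each with 1 of its 25697 probes, whereas *Lama3* was not analysed here. Glomeruli, the filtering units of the kidney, had been captured with magnetic beads from male FVB/N mice at 3 weeks of age. RNA of 4 *Cd151*+/+ mice and of 4 *Cd151*-/- mice, which carry a homozygous deletion of *Cd151*, was hybridised to Illumina MouseRef-8 v1.1 BeadChips, with a separate array for each mouse, and the labels name no treatment. Within a genotype the mice are called 1 to 4, and the labels tie no number to a litter or batch.

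Basement membranes are sheets of extracellular matrix built on 2 polymers, a laminin network and a type IV collagen network. Laminins are trimers of an alpha, a beta and a gamma chain, nidogens link the laminin and collagen networks, and the proteoglycans perlecan (*Hspg2*) and agrin (*Agrn*) carry heparan sulphate chains. In the kidney glomerulus the basement membrane lies between podocytes and endothelial cells, and during development its laminin changes from trimers with the alpha chain of *Lama1* and the beta chain of *Lamb1* to trimers with the chains of *Lama5* and *Lamb2*. CD151, a membrane protein of the tetraspanin family, binds laminin-binding integrins, the receptors by which podocytes hold on to this membrane.

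No member passed the test for a difference between the genotypes. Values are normalised log2 signals, a probe's brightness after correction for the array's background and quantile normalisation, so that 1 unit stands for a doubling, and levels of different probes cannot be set against each other. A probe was called detected on an array where its deposited detection *p*-value, the share of negative-control probes at least as bright, was 0.05 or lower. The probes of *Lama1*, *Lamb2*, *Lamc1*, *Nid1*, *Nid2*, *Hspg2* and *Agrn* were detected on all 8 arrays, that of *Lama2* on 2, and that of *Lama4* on none, so that 8 member probes were tested among 14967 detected on at least 1 array. In limma, with Benjamini-Hochberg adjustment over all of these, 5 probes (0.0334% of those tested) passed an adjusted *p* of 0.05 and 0 of the 8 member probes did. At an unadjusted *p* below 0.05 there were 643 probes (4.3%), 253 of them with a higher (1.69%) and 390 with a lower (2.61%) level in *Cd151*-/- glomeruli, and again 0 members, whose unadjusted *p*-values lay between 0.243 and 0.921. SAM called 91 probes (0.608%) and 0 members, and the methods' *t*-test had 590 probes (3.94%) at an unadjusted *p* below 0.05 and 1 past adjustment, with 0 members in both. In 346 probes (2.31%) every mouse of 1 genotype lay above every mouse of the other, and this held for 0 members. The fitted difference was above 0 for 2 members and below 0 for 6, with a median of -0.17 on the log2 scale, where the tested probes together were split 7349 above and 7618 below with a median of -0.0073. In bulk glomerular RNA, fewer cells of a type and less RNA per cell cannot be told apart.

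The labels were first checked against *Cd151* itself and against cell type markers. All 3 *Cd151* probes were detected in 4 of 4 *Cd151*+/+ mice and in 0 of 4 *Cd151*-/- mice, and the brightest of them, ILMN_2836710, stood at 14.37 ± 0.24 (SD, n = 4) in *Cd151*+/+ and 4.57 ± 0.08 (SD, n = 4) in *Cd151*-/- glomeruli. These 3 probes are among the 5 that passed adjustment. The podocyte marker *Podxl*, which encodes the surface sialoprotein podocalyxin, was detected in every mouse of both genotypes and lay between 11.17 and 12.37 on the log2 scale. Of the 10 listed podocyte markers 7 have a row and 6 were tested.

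The arrays themselves fall into 2 sets of 4. The background inferred from the negative controls was 65.2 and 59.0 signal units for *Cd151*+/+ mice 1 and 2 and 69.5 and 68.8 for *Cd151*-/- mice 3 and 4, the arrays of lower background. It was 123 and 129 for *Cd151*+/+ mice 3 and 4 and 135 and 129 for *Cd151*-/- mice 1 and 2, the arrays of higher background. Each set holds 2 mice of each genotype, the labels name no slide or scan that would account for the split, and the sets were formed after the arrays were seen. The differences of the members are therefore given over all mice and within each set.

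**Figure D1:**
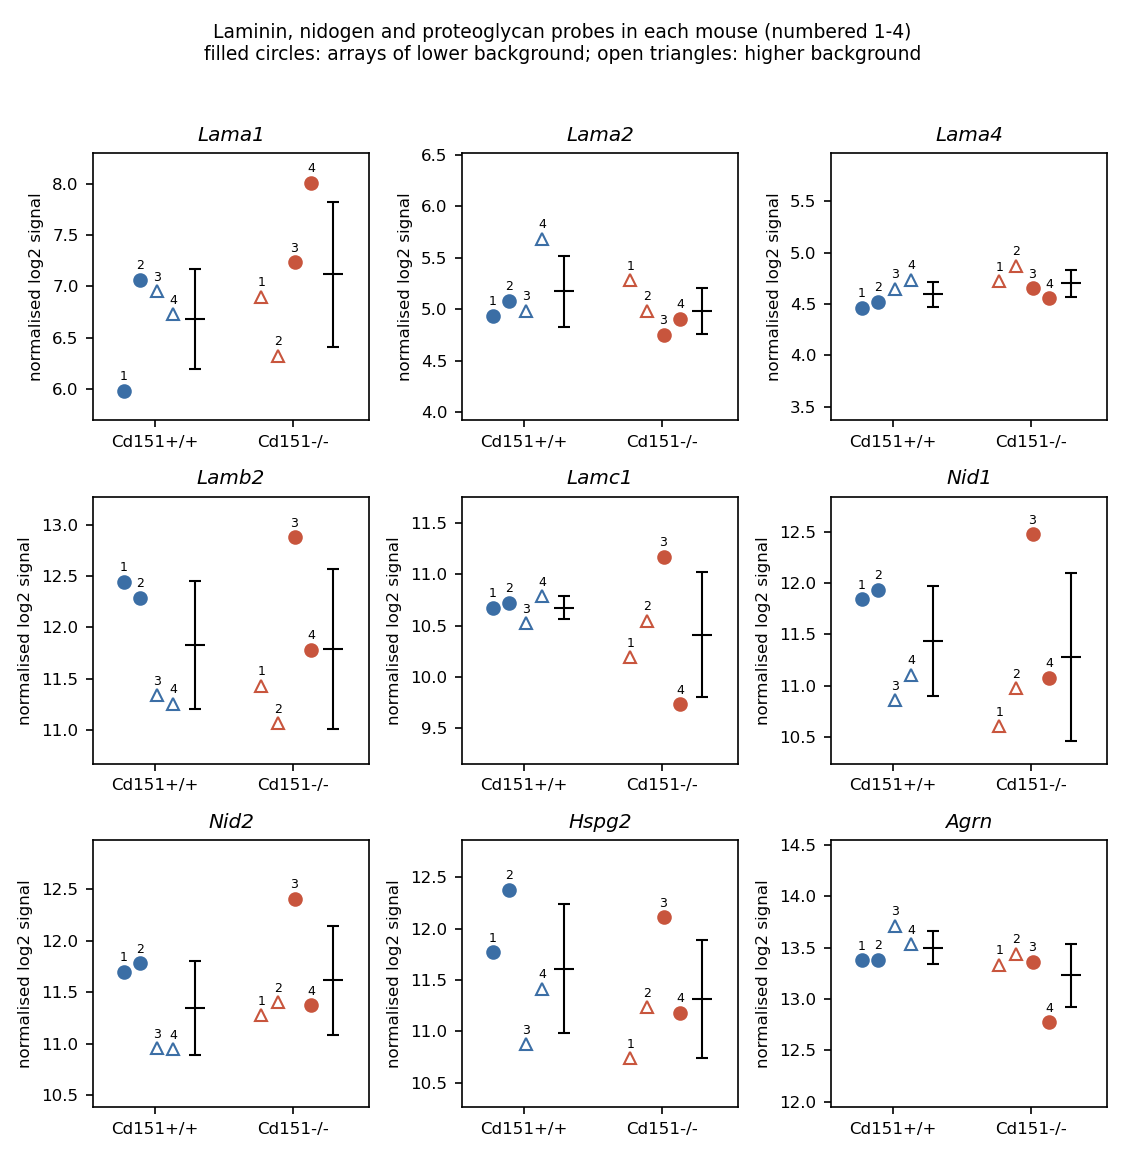
Normalised log2 signal (y axis, each panel with its own range) of the 9 member probes in each mouse, by genotype (x axis), with filled circles for arrays of lower and open triangles for arrays of higher background; the bars give the mean and SD of 4 mice. The genotypes overlap for every member, while *Lamb2* separates by the set of arrays, its 4 circles lying between 11.78 and 12.88 and its 4 triangles between 11.06 and 11.43.

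Among the alpha chains, *Lama1* (ILMN_2973288), the alpha chain of the developing glomerular basement membrane, was detected in all mice. Its normalised log2 signal was 5.98, 7.06, 6.95 and 6.73 in *Cd151*+/+ mice 1 to 4 and 6.90, 6.32, 7.24 and 8.01 in *Cd151*-/- mice 1 to 4. The lowest value belonged to a *Cd151*+/+ mouse and the highest to a *Cd151*-/- mouse, with the others intermingled. The difference of 0.44 ± 0.36 (SE, limma; 95% interval -0.37 to 1.24) amounts to 1.35-fold, with an interval from 0.775-fold to 2.36-fold and an adjusted *p* of 0.918. It was 1.10 on the arrays of lower background and -0.23 on those of higher background, and whether these 2 values differ was not tested. Without *Cd151*-/- mouse 4 the difference was 0.14.

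*Lama2* encodes the alpha chain of laminin trimers best known from the basement membranes of muscle and also found in the mesangium. Its probe (ILMN_2769479) was detected only in *Cd151*+/+ mouse 4, at 5.69, and *Cd151*-/- mouse 1, at 5.28, and the other 6 values lay between 4.75 and 5.08, at the level of the negative controls. The difference of -0.19 ± 0.24 (SE; 95% interval -0.71 to 0.33, adjusted *p* = 0.918) therefore compares mostly undetected values. It was -0.18 on the arrays of lower and -0.20 on those of higher background, and -0.02 without *Cd151*+/+ mouse 4. *Lama4*, the alpha chain of endothelial laminins, was represented by ILMN_2816565, which no array detected, with detection *p*-values from 0.21 to 0.93. Its values of 4.46 to 4.74 in *Cd151*+/+ and 4.56 to 4.87 in *Cd151*-/- mice overlapped, and with the detection filter lifted the difference was 0.11 (limma, unadjusted *p* = 0.341). The signal of this probe was not above background in these glomeruli, which bounds the probe's signal only and is not a measurement of *Lama4* mRNA at 0.

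*Lamb2* encodes the beta chain of the mature glomerular basement membrane. Its probe (ILMN_2699488) read 12.44, 12.29, 11.34 and 11.25 in *Cd151*+/+ mice 1 to 4 and 11.43, 11.06, 12.88 and 11.78 in *Cd151*-/- mice 1 to 4. Both genotypes held high and low mice, and the 4 highest were those on the arrays of lower background. The means of 11.83 ± 0.62 and 11.79 ± 0.78 (SD, n = 4 each) differed by -0.04 ± 0.41 (SE; 95% interval -0.95 to 0.87), or 0.971-fold with an interval from 0.518-fold to 1.82-fold (adjusted *p* = 0.992; exact permutation test over the 70 relabelings of the mice, two-sided, *p* = 0.971). Within the sets the difference was -0.04 on the arrays of lower and -0.05 on those of higher background. The fitted value took the opposite sign when any 1 of 4 mice was left out, the values being 0.16 and 0.11 without mouse 1 or 2 of *Cd151*+/+ and 0.071 and 0.20 without mouse 1 or 2 of *Cd151*-/-, and it was -0.40 without *Cd151*-/- mouse 3. With weights for array quality it was -0.60 (limma, adjusted *p* = 0.222).

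*Lamc1*, the gamma chain shared by most laminin trimers of the kidney, varied little among *Cd151*+/+ mice, at 10.68, 10.72, 10.52 and 10.79 on the log2 scale (ILMN_2974798). The *Cd151*-/- mice read 10.19, 10.55, 11.17 and 9.74, and so lay both above and below the whole *Cd151*+/+ range. The difference of -0.26 ± 0.29 (SE; 95% interval -0.91 to 0.38, adjusted *p* = 0.918) was nearly the same within the sets, at -0.25 and -0.28. Leaving out the lowest mouse, *Cd151*-/- mouse 4, gave -0.04, and leaving out the highest, mouse 3 of that genotype, gave -0.52. A difference in spread between the genotypes was not tested.

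The fitted differences of the nidogens had opposite signs, and neither passed the test. *Nid1* (ILMN_2814005) read 11.84, 11.94, 10.86 and 11.11 in *Cd151*+/+ mice and 10.61, 10.98, 12.47 and 11.08 in *Cd151*-/- mice, with the highest and the lowest value both in *Cd151*-/- glomeruli. Its difference was -0.15 ± 0.40 (SE; 95% interval -1.04 to 0.74, adjusted *p* = 0.957), with -0.11 and -0.19 in the sets of lower and higher background. It was -0.75 with weights for array quality, 0.015 when *Cd151*+/+ mouse 2 was left out, 0.075 for mouse 1 of *Cd151*-/- and -0.55 for mouse 3 of that genotype. *Nid2* (ILMN_2961933) read 11.70, 11.78, 10.96 and 10.95 in *Cd151*+/+ mice and 11.27, 11.40, 12.41 and 11.38 in *Cd151*-/- mice. Of the *Cd151*-/- mice 3 lay between the 2 pairs of *Cd151*+/+ mice, and mouse 3 lay above all others. The difference was 0.27 ± 0.32 (SE; 95% interval -0.43 to 0.97, adjusted *p* = 0.918), with 0.15 and 0.39 in the sets of lower and higher background, and 0.0062 without *Cd151*-/- mouse 3. With weights for array quality the difference of *Nid2* was -0.12, so that both nidogens were then below 0.

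The proteoglycans were both fitted lower in *Cd151*-/- glomeruli, again short of the test. *Hspg2* (ILMN_2685329), which encodes perlecan, read 11.77, 12.38, 10.87 and 11.42 in *Cd151*+/+ mice and 10.74, 11.23, 12.11 and 11.18 in *Cd151*-/- mice. Of the *Cd151*-/- mice 3 were below 3 of the *Cd151*+/+ mice, and mouse 3 was above 3 of them. The difference was -0.29 ± 0.36 (SE; 95% interval -1.09 to 0.51, adjusted *p* = 0.918), with -0.43 and -0.16 in the sets of lower and higher background. It was -0.82 with weights for array quality, -0.04 without *Cd151*+/+ mouse 2 and -0.56 without *Cd151*-/- mouse 3. *Agrn* (ILMN_2674367), whose product agrin is the main heparan sulphate proteoglycan of the glomerular basement membrane, read 13.38, 13.38, 13.71 and 13.53 in *Cd151*+/+ mice and 13.34, 13.44, 13.37 and 12.78 in *Cd151*-/- mice. *Cd151*-/- mouse 4 was the lowest, and the other 7 mice lay between 13.34 and 13.71 with the genotypes overlapping. The difference of -0.27 ± 0.22 (SE; 95% interval -0.76 to 0.21) had the lowest *p* of the members (unadjusted *p* = 0.243, adjusted *p* = 0.918; exact permutation test, two-sided, *p* = 0.143). It was -0.31 and -0.23 in the sets, and -0.12 without *Cd151*-/- mouse 4.

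**Figure D2:**
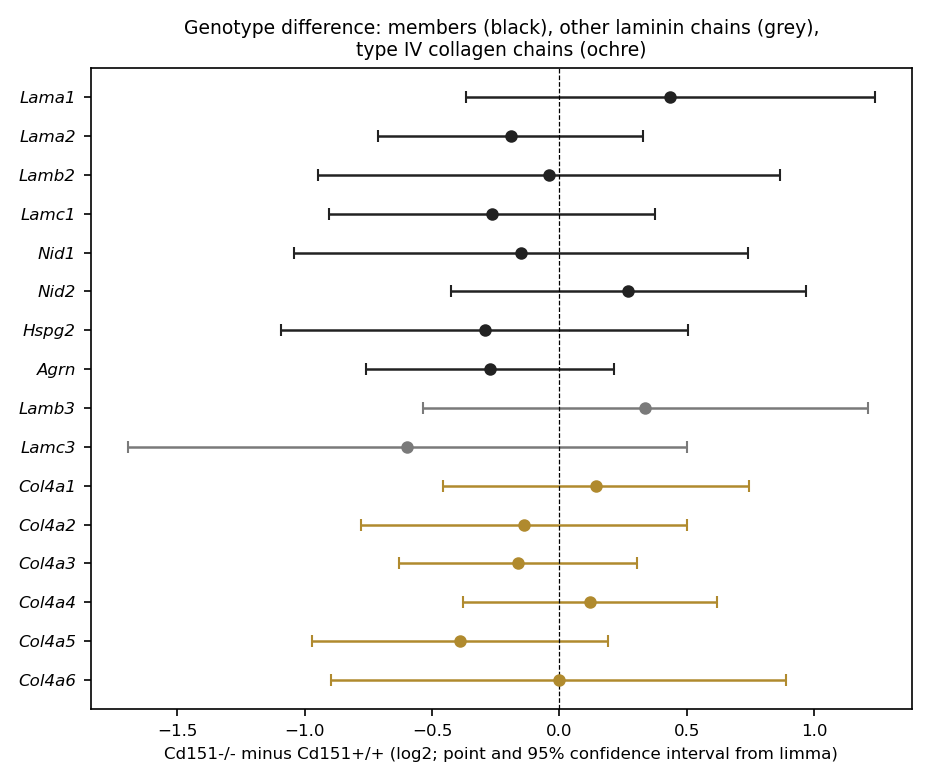
Difference between *Cd151*-/- and *Cd151*+/+ glomeruli (x axis, log2) for the 8 tested members, 2 other laminin chains and 6 type IV collagen chains, 1 probe per gene, with points for the limma estimate and bars for its 95% confidence interval from 4 mice per genotype. The interval of every gene shown includes 0, the members running from -0.29 for *Hspg2* to 0.44 for *Lama1*.

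The width of these intervals follows the spread between mice. Of the 8 tested members 6 had a residual SD, the spread of mice about their genotype's mean, above the median of all tested probes, which was the case for *Lamb2*, *Nid1*, *Lama1*, *Hspg2*, *Nid2* and *Lamc1*. For *Lamb2* 89.6% and for *Nid1* 88.9% of the tested probes had a smaller residual SD, whereas for *Agrn* this was 15.7%.

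Much of the spread of 4 members followed the set of arrays. *Lamb2* was higher on the arrays of lower background by 1.07 in *Cd151*+/+ and by 1.08 in *Cd151*-/- mice, *Nid1* by 0.91 and 0.98, *Hspg2* by 0.93 and 0.66, and *Nid2* by 0.79 and 0.55, each a difference of means of 2 mice on the log2 scale. Of all tested probes 10.2% were higher by at least 0.5 in both genotypes, as these 4 of the 8 members were. *Lamc1* differed by 0.05 and 0.09, *Agrn* by -0.24 and -0.32, and *Lama1* by -0.31 and 1.01. Only for *Lamb2* did the 2 sets not overlap among the members, with means of 12.35 and 11.27, where the same held, with the set of lower background above, for 11.6% of all tested probes. The direction for *Lamb2*, *Nid1*, *Hspg2* and *Nid2* was the same without background correction, with cubic spline normalisation, with an offset of 50 and with scaling to the 75th percentile. That scaling moved the median of all tested probes between the sets by 0.42 in *Cd151*+/+ and 0.39 in *Cd151*-/- mice, against 1.28 and 1.29 for *Lamb2*. The part of the array background in these values was not tested.

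**Figure D3:**
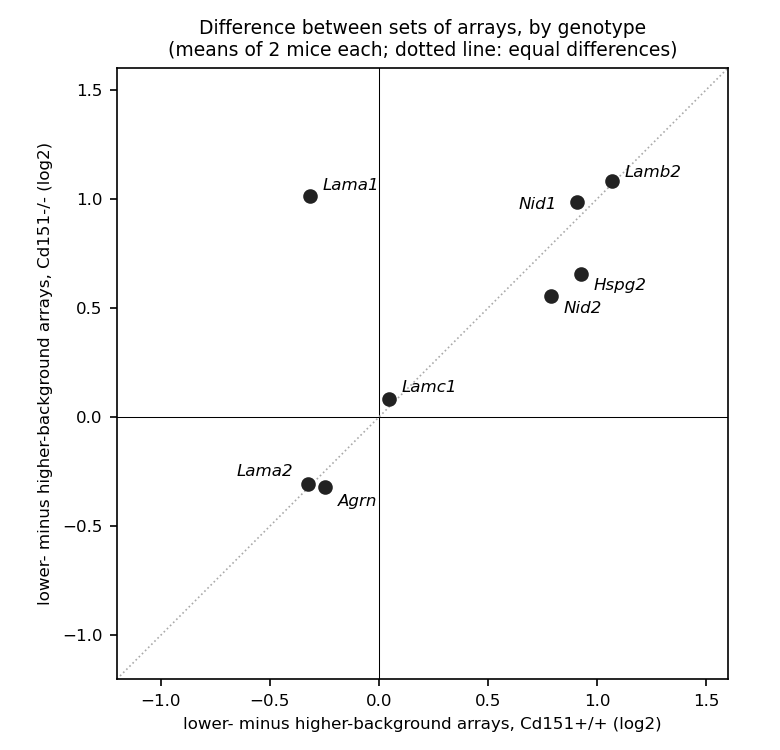
Mean of the 2 arrays of lower background minus mean of the 2 arrays of higher background (log2) in *Cd151*+/+ (x axis) and *Cd151*-/- mice (y axis) for each of the 8 tested members, with a dotted line where both are equal. *Lamb2*, *Nid1*, *Hspg2* and *Nid2* lie above 0.5 on both axes, *Lamc1* lies near 0 on both, and *Lama1* is the member that lies farthest from the line.

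When limma was given the array set as a block, 1690 of all tested probes (11.3%) had an unadjusted *p* below 0.05 and 8 (0.0535%) passed adjustment. No member was among either group, and the members' adjusted *p*-values were 0.533 to 0.952. The blocked SE of *Lamb2* was 0.24 and its 95% interval was -0.57 to 0.48, narrower than without the block. For *Agrn* the interval was -0.66 to 0.12 and the unadjusted *p* was 0.149.

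The members' values across mice were also set against each other, as a description over 8 arrays that share their preparation and normalisation. *Nid1* ran with *Lamb2* (Pearson's r = 0.92) and with *Hspg2* (0.92), and *Nid2* with both *Lamb2* (0.89) and *Nid1* (0.89). *Agrn* did not run with these, with r = -0.22 against *Lamb2* and -0.04 against *Nid1*, and it ran opposite to *Lama1* (-0.63). After the mean of each set of arrays was removed, *Nid1* and *Lamc1* were at 0.99, *Agrn* and *Lamc1* at 0.85 and *Agrn* and *Nid1* at 0.78. *Agrn* then stood at 0.68 against *Lamb2* and 0.69 against *Hspg2*. In contrast, *Hspg2* and *Lamb2* went from 0.78 to 0.43 and *Hspg2* and *Nid2* from 0.75 to 0.46. Values after removal of the set means rest heavily on *Cd151*-/- mice 3 and 4 and were not recomputed without them. The means of their set were 10.58 for *Lamc1*, 11.83 for *Nid1* and 13.23 for *Agrn*. Against these, mouse 3 read 11.17 for *Lamc1* and 12.47 for *Nid1*, and mouse 4 read 9.74, 11.08 and, for *Agrn*, 12.78. Mouse 3 of *Cd151*-/-, which was highest for *Lamb2*, *Lamc1*, *Nid1* and *Nid2*, carried part of the first pattern, and without it *Nid1* and *Lamb2* were at 0.86 and *Nid1* and *Lamc1* at 0.46, compared with 0.68 for the latter pair over all 8 arrays.

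**Figure D4:**
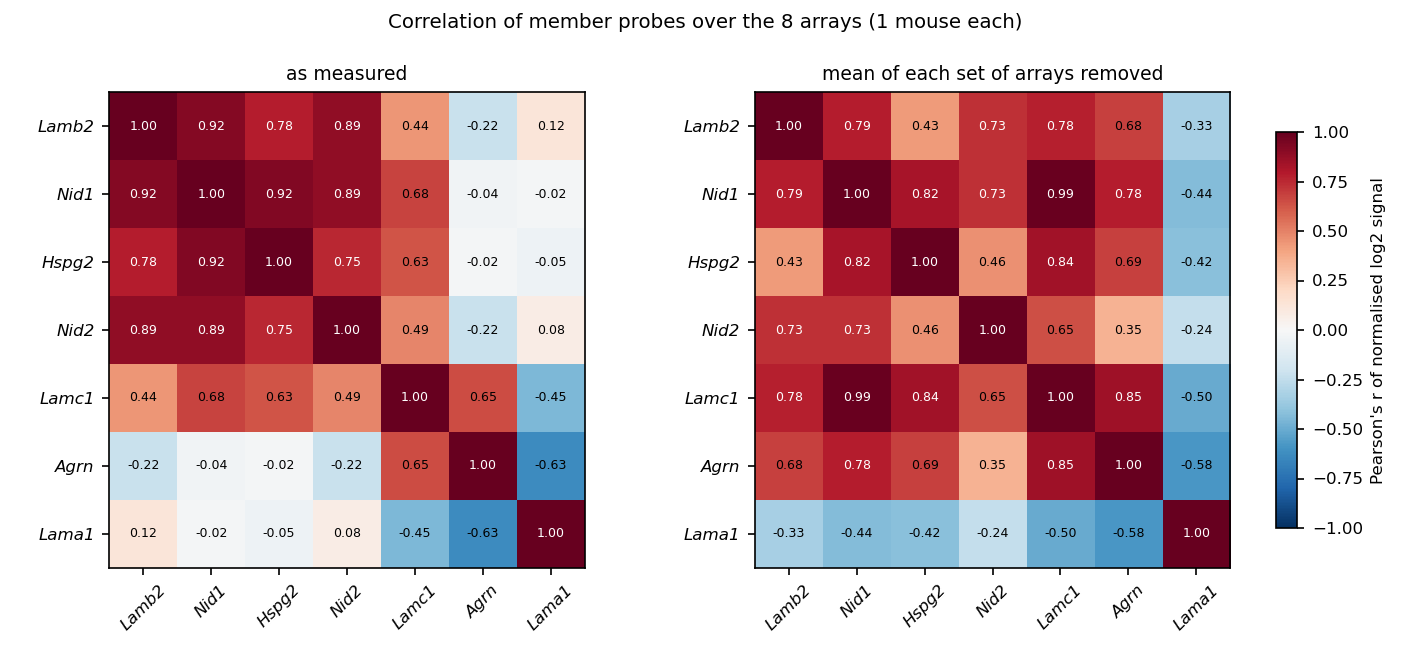
Pearson's r between the 7 members detected on all 8 arrays, from normalised log2 signal as measured (left) and after the mean of each set of 4 arrays was removed (right), with red for positive and blue for negative values. On the left *Lamb2*, *Nid1*, *Hspg2* and *Nid2* form a block of values of 0.75 and above, and on the right *Lamc1* is at 0.65 or above against these 4 while *Lama1* is negative against every other member.

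Because *Lamb2*, *Nid1* and *Hspg2* varied together over the 8 arrays as measured and *Agrn* did not vary with them, a contrast that did not hold once the means of the array sets were removed, the 250 bases upstream of their start sites are shown from RefSeq (GRCm38.p6), whose promoter table matched 5 of the members. Capitals mark GC boxes, searched as GGGCGG and, for the other strand, CCGCCC, and a sequence may hold overlapping matches. They are written 5′ to 3′ on the gene's strand, at chr9:108479612-108479861 (+) for *Lamb2*, chr13:13437352-13437601 (+) for *Nid1*, chr4:137468553-137468802 (+) for *Hspg2* and chr4:156197489-156197738 (-) for *Agrn*, the farther upstream of its 2 promoters in the table.
Lamb2: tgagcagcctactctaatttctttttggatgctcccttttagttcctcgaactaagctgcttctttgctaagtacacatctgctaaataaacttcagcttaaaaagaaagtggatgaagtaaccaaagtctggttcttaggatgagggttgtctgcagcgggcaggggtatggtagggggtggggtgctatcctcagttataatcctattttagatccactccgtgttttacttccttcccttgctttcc
Nid1: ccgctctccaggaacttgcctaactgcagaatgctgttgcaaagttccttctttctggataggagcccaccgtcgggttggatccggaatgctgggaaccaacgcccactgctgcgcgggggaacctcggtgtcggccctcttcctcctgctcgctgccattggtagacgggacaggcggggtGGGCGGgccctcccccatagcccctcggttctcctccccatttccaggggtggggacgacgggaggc
Hspg2: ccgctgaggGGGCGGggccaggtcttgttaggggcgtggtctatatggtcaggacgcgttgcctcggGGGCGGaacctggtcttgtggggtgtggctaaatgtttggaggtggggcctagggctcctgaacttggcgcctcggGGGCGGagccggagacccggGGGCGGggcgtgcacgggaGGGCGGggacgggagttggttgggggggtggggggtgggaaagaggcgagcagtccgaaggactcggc
Agrn: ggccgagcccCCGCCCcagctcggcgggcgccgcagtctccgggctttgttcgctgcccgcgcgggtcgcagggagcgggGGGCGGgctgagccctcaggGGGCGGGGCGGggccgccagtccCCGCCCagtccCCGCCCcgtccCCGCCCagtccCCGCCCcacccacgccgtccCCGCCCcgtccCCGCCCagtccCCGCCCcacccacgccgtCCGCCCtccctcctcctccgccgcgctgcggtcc
The window of *Lamb2* held 0 GC boxes and 43.6% G and C, that of *Nid1* 1 box and 64.4%, that of *Hspg2* 5 boxes and 70%, and that of *Agrn* 12 boxes and 83.6%. A window of the same length held a GC box in 32.7% of all 32851 listed promoters, and their median G and C content was 52.4%. The 3 genes that varied together as measured thus differed in this respect. A match is a description of the letters, and no binding was measured here.

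The probes most like 2 of the members were sought among the 9494 others detected on all 8 arrays, by Pearson's r of normalised log2 signal. For *Lamb2* these were *Srpk2*, a kinase of splicing factors (0.985), *Taf11*, a subunit of the general transcription factor TFIID (0.975), and *Uhrf2* (0.968). For *Lamc1* they were *Trim21*, a cytosolic antibody receptor (0.966), *Emp1*, an epithelial membrane protein (0.940), and *Serpinb1a* (0.939). *Srpk2* had the same order of the 8 mice as *Lamb2*.

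Among the other laminin chains, *Lamb3*, a beta chain of epithelial laminins, was detected in *Cd151*-/- mouse 4 alone, at 6.50, with the other 7 mice between 4.52 and 5.11. *Lamc3* read 8.27, 7.54, 5.73 and 6.28 in *Cd151*+/+ and 6.19, 6.45, 6.97 and 5.84 in *Cd151*-/- mice, a difference of -0.60 ± 0.50 (SE, unadjusted *p* = 0.255) that was -1.50 on the arrays of lower and 0.31 on those of higher background. Whether the sets differ in this was not tested. *Lamb1-1*, the probe for the beta chain of the developing membrane, was detected on no array (detection *p*-values of 0.38 to 0.98), so that the ratio of *Lamb2* to it was not tested, and *Lama5* was not analysed here.

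The type IV collagen chains, which form the other network of the membrane, gave no call either. The chains of the developing membrane, *Col4a1* (0.14) and *Col4a2* (-0.14), and those of the mature membrane, *Col4a3* (-0.16), *Col4a4* (0.12) and *Col4a5* (-0.39), differed between genotypes by these log2 values, and *Col4a6* by -0.0022. Of the 6 genes 2 were above and 4 below 0, with none at an unadjusted *p* below 0.05 (lowest 0.169, for *Col4a5*) and a median of -0.07.

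Of 12 other tested basement membrane components 5 were above and 7 below 0, with a median of -0.04, and 1 had an unadjusted *p* below 0.05. This was *Ntn4*, a laminin-related netrin of basement membranes that the study picked from these same arrays, so that its array value is not independent evidence. By real-time PCR the paper also reports lower *Ntn4* mRNA in *Cd151*-/- glomeruli, in FVB/N mice and in its disease-resistant strain. It saw no obvious decrease of the protein by immunofluorescence. *Ntn4* read 8.94, 8.82, 8.84 and 7.89 in *Cd151*+/+ and 7.25, 7.71, 7.91 and 8.17 in *Cd151*-/- mice, a difference of -0.86 ± 0.29 (SE, unadjusted *p* = 0.0136, adjusted *p* = 0.918), with -0.84 and -0.88 within the sets. *Col15a1*, a collagen of the basement membrane zone, followed with -0.72 ± 0.34 (SE, unadjusted *p* = 0.0604). Of 10 tested laminin receptors 5 were above and 5 below 0, and 1 had an unadjusted *p* below 0.05. This was *Sdc1*, a cell surface heparan sulphate proteoglycan, at 7.92, 7.36, 7.58 and 7.03 in *Cd151*+/+ and 6.42, 6.50, 7.13 and 6.14 in *Cd151*-/- mice, a difference of -0.93 ± 0.28 (SE, unadjusted *p* = 0.00633, adjusted *p* = 0.918), with -1.01 and -0.85 within the sets. *Itga2*, an integrin chain that binds collagen and laminin, came next with 0.43 ± 0.27 (SE, unadjusted *p* = 0.142). The integrin chains with which CD151 associates on podocytes, *Itga3* and *Itgb1*, differed by -0.08 ± 0.25 and -0.06 ± 0.23 (SE), and *Itga6* was detected on no array. Over all 11240 tested genes an unadjusted *p* below 0.05 was reached by 213 with higher and 278 with lower values in *Cd151*-/- glomeruli.

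Cell type markers varied between mice beside these values, and their part in the members' values was not tested. The 6 tested podocyte markers were all below 0 with a median difference of -0.19, and 0 had an unadjusted *p* below 0.05. Their summed signal was 113719, 112158, 113653 and 107975 in *Cd151*+/+ mice 1 to 4 and 93965, 103614, 114979 and 96594 in *Cd151*-/- mice 1 to 4, of which *Cdkn1c*, a cell cycle inhibitor of mature podocytes, was the most abundant. Of the 10 glomerular endothelial markers 9 were below 0, with a median of -0.40 and none at an unadjusted *p* below 0.05. Their sum, led by *Emcn*, was 46635, 50909, 41219 and 39104 in *Cd151*+/+ and 28588, 37514, 50570 and 26278 in *Cd151*-/- mice. It was lowest in *Cd151*-/- mice 4 and 1, the mice with the lowest *Lamc1*, and second highest in *Cd151*-/- mouse 3, the mouse with the highest. The podocyte sum and that of the other basement membrane components were also lowest in *Cd151*-/- mice 1 and 4, and highest in mouse 3. The tubular sum did not follow this order and was lowest in *Cd151*+/+ mouse 2, at 44352.

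Of 7 tested mesangial and smooth muscle markers 2 were above and 5 below 0, with *Acta2*, smooth muscle actin and the most abundant of the list, at 0.71 (unadjusted *p* = 0.0185) and *Pdgfrb*, the growth factor receptor of mesangial cells, at -0.74 (unadjusted *p* = 0.0399), and with *Cnn1* not detected. Among the markers of tissue outside the glomerular tuft, 7 of 10 tubular markers were above 0 with a median of 0.44. *Kap*, a proximal tubule gene, had a difference of 1.38 (unadjusted *p* = 0.0337). It read 8.70, 7.99, 8.13 and 10.76 in *Cd151*-/- mice 1 to 4. The summed tubular signal, led by the phosphate transporter *Slc34a1*, was 59335 ± 15883 in *Cd151*+/+ and 59992 ± 9527 in *Cd151*-/- mice (SD, n = 4 each). Of 8 fibroblast markers 4 were tested, 2 on each side of 0, led by *Pdgfra*, and *Col3a1*, *Dpt*, *Fbln5* and *Lum* were not detected. Of 3 tested parietal epithelial markers, led by *Cldn1*, 1 was above 0, and of 6 tested leukocyte markers, led by *Lyzs*, 3 were above 0, with *Pax2*, *Ptprc*, *Cd79a* and *Itgam* not detected. The 4 tested erythroid markers were all below 0, with the haemoglobin gene *Hba-a1* at -0.69 (unadjusted *p* = 0.0276) and the haem synthesis gene *Alas2* at -2.57 (unadjusted *p* = 0.00519). The 8 tested immediate early genes, transcription factors and others that respond within minutes to handling, were all below 0 with a median of -0.98, and *Jun*, *Junb* and *Zfp36*, named after their values were seen, had an unadjusted *p* below 0.05. Their summed signal was 48047, 41902, 39374 and 52205 in *Cd151*+/+ mice 1 to 4. In *Cd151*-/- mice 1 to 4 it was 30336, 54183, 23577 and 10140, above every *Cd151*+/+ mouse in mouse 2 and lowest in mouse 4. No listed gene of these cell types passed adjustment.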

How the data were processed

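Glomerular RNA of 4 *Cd151*+/+ and 4 *Cd151*-/- mice was measured on 1-colour arrays. The authors deposited signal intensities, the mean bead brightness of each probe, without background subtraction or normalisation, and beside each intensity the authors deposited a detection p-value, computed from the array's negative-control probes. The authors' own values came from cubic spline normalisation in Genome Studio. Groups came from the labels, which call each mouse a biological replicate. In R 4.3.3, limma 3.58.1 took the background of each array (median signal 65.7 to 164) from those detection values, applied neqc (offset 16), which returns log2 values, and fitted genotype with lmFit and eBayes for probes that at least 1 array detected (at 0.05 or lower). *p*-values were adjusted over all 14967 tested probes. Exact permutation tests used all 70 relabelings, and the smallest *p* they can give is 0.0286. No set test was run. The number of arrays and the signal over background limit the precision. The fit was tested on simulated data.

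The members and gene lists were chosen with earlier results of these data known. Text names, apart from some genes that are not reported here, all members, *Cd151*, the other laminin and type IV collagen chains, the matrix components and receptors at an unadjusted *p* below 0.05 or with the 2 lowest *p*-values, and of each cell type list its most abundant gene and those at an unadjusted *p* below 0.05. *Podxl*, *Itga3*, *Itgb1*, the genes not detected and the immediate early genes were named beyond this rule, after their values were seen. Of several probes of a gene the one with the highest mean is given. Summed signals are of normalised values on the linear scale. The mouse numbers, which the labels tie to no litter or batch, were not used as pairs. Deviations of same-numbered mice from their genotype's mean correlated at r = -0.58, -0.40, -0.53 and -0.0086. Same-numbered mice always lie on arrays of different background sets, so these values cannot show whether the mice are paired. Alternatives were no background correction, cubic spline (15 quantiles) or 75th percentile scaling, an offset of 50, other detection filters, mouse number as a blocking factor, a trended, robust variance, weights for arrays, single mice left out, SAM (FDR below 0.2), the methods' *t*-test on cubic spline intensities of 50 or more, and, added after the data were seen, the set of arrays as a block.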

Additional observations from a re-analysis of the deposited data

Results flagged for a closer look

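Among 16 groups of 4 mice, the 8 tested members in each genotype, 2 held a mouse set far apart from the other 3 by the gap between its value and the nearest one, and chance flags about 1 in 20 such groups. *Nid2* stood at 12.41 in *Cd151*-/- mouse 3, where the other *Cd151*-/- mice lay between 11.27 and 11.40. *Agrn* stood at 12.78 in *Cd151*-/- mouse 4, where the others lay between 13.34 and 13.44. Both arrays are of the lower background, and both mice are also at the extremes for *Lamc1*, mouse 3 at 11.17 and mouse 4 at 9.74.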

How the results depend on the processing

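Of 143 recomputed differences of the 8 tested members, 0 passed adjustment and 8 changed sign, and *Lama1*, *Lamc1*, *Hspg2* and *Agrn* changed sign under none of the alternatives run. With array weights 2 member probes had an unadjusted *p* below 0.05, *Hspg2* (-0.82, adjusted *p* = 0.115) and *Nid1* (-0.75, adjusted *p* = 0.142), where 32.2% of all tested probes did, *Lamb2* was -0.60 (adjusted *p* = 0.222), and *Lama2* (0.025) and *Nid2* (-0.12) changed sign; these weights ran from 0.472 for *Cd151*-/- mouse 3 to 2.79 for *Cd151*-/- mouse 1. The adjusted *p*-values of *Hspg2* and *Nid1* were otherwise higher under every alternative run. Probes past adjustment numbered 8 when the array set was a block, 91 (0.608%) by SAM and 1 by the methods' *t*-test (590 unadjusted, 3.94%), with 0 members in each. With single mice left out they numbered 4 to 6, and member probes whose genotypes did not overlap numbered 0 to 1, the 1 being *Agrn* without *Cd151*-/- mouse 2, where 5.32% of all tested probes did not overlap. *Lamb2* then ran from -0.40 to 0.20, being above 0 without *Cd151*+/+ mouse 1 (0.16) or 2 (0.11) or *Cd151*-/- mouse 1 (0.071) or 2 (0.20), and *Nid1* from -0.55 to 0.075, being above 0 without *Cd151*+/+ mouse 2 (0.015) or *Cd151*-/- mouse 1 (0.075). The other ranges were 0.14 to 0.69 for *Lama1*, -0.28 to -0.02 for *Lama2*, -0.52 to -0.04 for *Lamc1*, 0.0062 to 0.42 for *Nid2*, -0.56 to -0.04 for *Hspg2* and -0.35 to -0.12 for *Agrn*. *Lama2* was not tested where detection on all 4 arrays of a group was required. The intensity minimum of 50 removed 0 detected probes. It was applied to signals without background subtraction, from arrays whose inferred background was 59.0 to 135. The study lists average intensities below 50, so its filter was not reproduced by this *t*-test. The planned differences of *Lamb2* minus *Lamb1* and *Lama5* minus *Lama1* were not run. The causes were not tested.

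With the mouse number as a block, which the labels do not tie to a litter or batch, 4 probes passed adjustment where 5 did without the replicate block, and the members' differences and calls did not change.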
